A study of Danio rerio with 6 samples.

Results

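A set of 10 genes that mark sinusoidal, lymphatic and blood vessel endothelium were followed through MARS-seq profiles of zebrafish cells enriched for the neurohypophysis, the neural lobe of the pituitary. They were chosen by name and are lyve1a, mrc1a, stab1, stab2, vsg1, dab2, cldn5b, vwf, kdrl and cdh5, and each has 1 row among the 31417 rows of the plate tables. MARS-seq sorts single cells into the wells of a plate and counts molecules by unique molecular identifiers (UMIs) at the 3′ end of each transcript. The fish were of strain AB and carried Tg(pomca:EGFP), a transgene that expresses EGFP under the pomca promoter, at every age. They were sampled at 37 days post fertilization (dpf), 5 months and 7 months, and the adults were male. Every fish had received the fluorescent dipeptide β-Ala-Lys-Nε-AMCA at 4.6 mM, 5 µl at 37 dpf and 10 µl in adults, and pituitaries were taken 3 hours later. At each age 5 pituitaries were pooled and the cells sorted into 2 plates of 384 wells. The 2 plates of an age therefore share their fish, and every SD and p-value below describes the spread between plates, not between animals.

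Sinusoidal and lymphatic endothelial cells clear macromolecules from blood and tissue fluid through scavenger receptors and lysosomes, whereas other vessel cells form a sealed or a fenestrated wall. Stab1 and Stab2 (stabilins) take up hyaluronan, modified proteins and other waste; Mrc1a is a mannose receptor that in zebrafish marks veins and lymphatics; Lyve1a belongs to the hyaluronan receptors named after lymphatic endothelium. Kdrl is a receptor for vascular endothelial growth factor, Cdh5 is the VE-cadherin that joins endothelial cells, Cldn5b is a claudin of tight junctions, and Vwf is the von Willebrand clotting factor. The remaining members are dab2, an adaptor for clathrin-mediated endocytosis, and vsg1, which RefSeq lists as a synonym of plvapb, a gene for the diaphragm protein of fenestrated capillaries. Capillaries of the neural lobe are of the fenestrated kind, through which its hormones pass into blood.

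Wells of at least 400 UMIs were kept, 1390 in all, of which the juvenile plates gave 650 (311 and 339), the 5-month plates 431 (257 and 174) and the 7-month plates 309 (203 and 106). Kept wells held 990934 and 1166584 UMIs on the juvenile plates, 439266 and 261477 in 5-month fish, and 204347 and 81949 in 7-month fish, so that 3 UMIs, the limit that a count of 0 allows, corresponded to between 2.57 and 36.6 CPM, UMIs per 1e+06 kept UMIs of a plate. Median UMIs per kept well fell in a range from 675.5 to 2105, deepest at 37 dpf. The deposited well list gives the 4 adult plates 1 sequencing batch and the second 37 dpf plate another, so a comparison of 37 dpf with adults cannot be told apart from that batch. Red cells also set 37 dpf apart: 144 of its wells had at least 2% of their UMIs from globin genes, and they held 42.0% and 48.7% of the kept UMIs of its plates, against no such well in adults. Markers of pituicytes, the glia of the neural lobe, summed to 304 and 310 CPM at 37 dpf and to 3920 to 8652 CPM on the adult plates. No well name occurred on more than 1 plate.

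All 4 scavenger genes were found on both 37 dpf plates, each in 2.95% to 6.43% of wells. For lyve1a the juvenile plates held 65 and 35 UMIs (65.6 and 30.0 CPM), the 5-month plates 2 and 19 (4.55 and 72.7 CPM), and the 7-month plates none. The 5-month plates thus lay on both sides of the 37 dpf plates, and 18 of the 19 UMIs on the second of them came from 1 well. The mannose receptor gene mrc1a had 60.5 and 24.9 CPM on the juvenile plates, 6.83 and 0 on those of 5-month fish and 19.6 and 0 on those of 7-month fish. All adult values were below both 37 dpf values, on 3 UMIs at 5 months and 4 at 7 months. The 0 of the second 7-month plate allows up to 36.6 CPM, above the lower juvenile value, so it shows no separation.

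Of the stabilins, stab1 had 45.4 and 36.0 CPM in juveniles, 22.8 and 42.1 in 5-month fish, and 9.79 and 0 in 7-month fish. Its 5-month plates overlapped the juvenile ones and its 7-month values did not, though the 0 on the second allows up to 36.6 CPM. Its relative stab2 had 42.4 and 26.6 CPM in juveniles, 9.11 and 11.5 in 5-month fish, and 24.5 and 24.4 in 7-month fish. All adult plates of stab2 were below the juvenile ones, with the 5-month plates lowest, although the 7-month values stand on 5 and 2 UMIs in 1 well each.

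The plvapb synonym vsg1 had 64.6 and 25.7 CPM in juveniles, 15.9 and 22.9 in 5-month fish, and 34.3 and 0 in 7-month fish. Its first 7-month plate lay between the 37 dpf plates, with 7 UMIs in 5 wells. For dab2 the juvenile plates stood at 25.2 and 22.3 CPM. Those of 5-month fish stood at 9.11 and 3.82, and those of 7-month fish at 4.89 and 0. No adult value reached a juvenile one, but the last 0 allows up to 36.6 CPM. A second row named DAB2 (1 of many) exists in the tables, and reads of the 2 copies may have been divided between them. That row had 279 and 238 CPM in juveniles, 378 and 134 in 5-month fish, and 117 and 122 in 7-month fish. Its first 5-month plate thus lay above both juvenile plates, unlike dab2.

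Among the vessel genes cldn5b was found in the most juvenile wells, 6.43% and 3.54%. It had 39.4 and 18.9 CPM there, a single UMI at 5 months (0 and 3.82 CPM) and none at 7 months. Juvenile and adult values did not overlap, but the 0 of the second 7-month plate allows up to 36.6 CPM. The clotting gene vwf had 19.2 and 2.57 CPM in juveniles, 6.83 and 19.1 in 5-month fish, and 0 and 12.2 in 7-month fish, so its plates overlapped at all ages. For kdrl the juvenile plates had 9.08 and 4.29 CPM, the 5-month plates 6.83 and 7.65 and the 7-month plates 4.89 and 12.2. These also overlapped, on 14, 5 and 2 UMIs by age. The cadherin gene cdh5 had 4.04 and 5.14 CPM in juveniles, 9.11 and 15.3 in 5-month fish and none later. Both 5-month plates of cdh5 were above both 37 dpf plates, on 8 and 10 UMIs. The 144 juvenile wells with at least 2% globin UMIs held none of these, but count in the juvenile CPM. Without those wells cdh5 pooled over plates stood at 8.52 CPM at 37 dpf and 11.4 CPM at 5 months. The ratio of 37 dpf to 5 months was then 0.747, with an exact counting interval of 0.265 to 2.18 that covers equal levels.

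**Figure D1:**
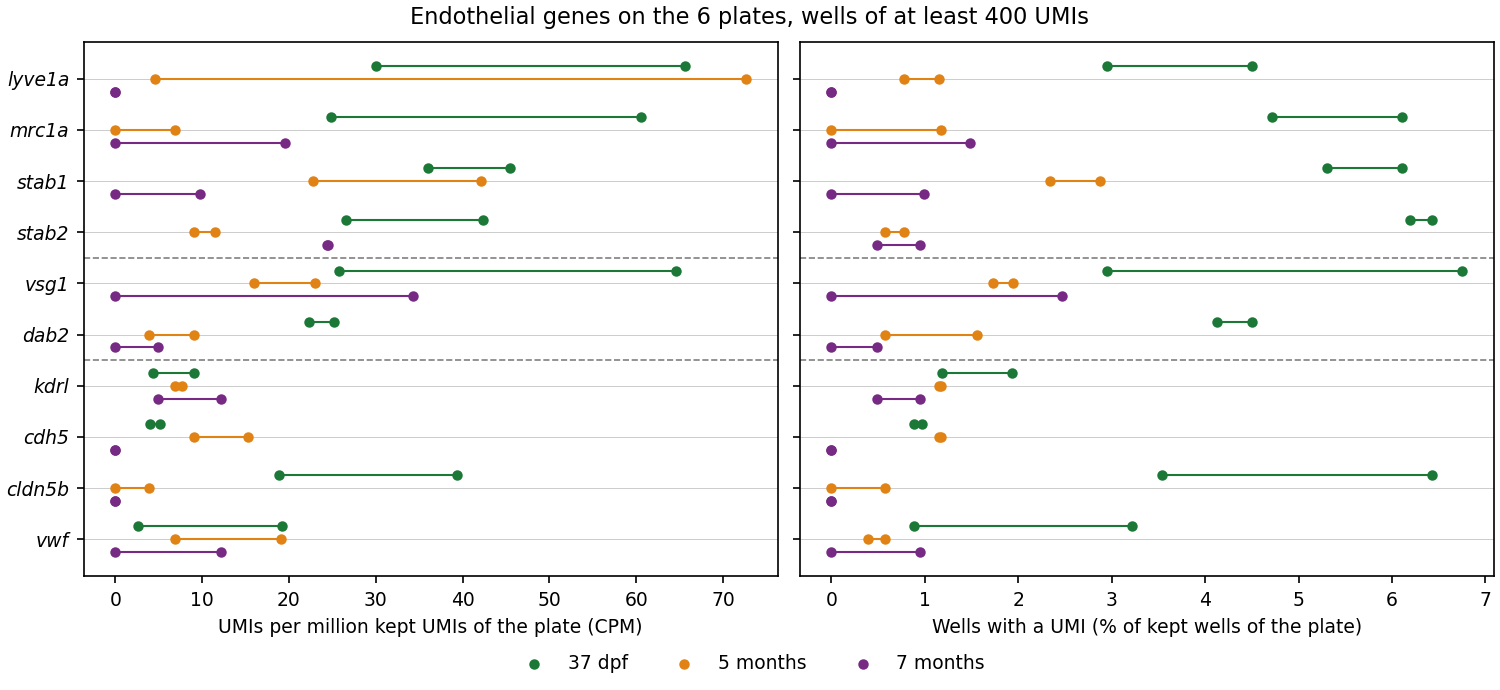
Level (left, CPM) and share of kept wells with a UMI (right, %) of the 10 genes on the 6 plates; each dot is a plate and the line joins the 2 plates of an age. Dashed lines part the scavenger genes (top), vsg1 and dab2, and the vessel genes. On the left all adult dots of mrc1a, stab2, dab2 and cldn5b lie below their juvenile dots. The second 7-month plate has 0 for mrc1a, dab2 and cldn5b, where a 0 allows up to 36.6 CPM. For stab2 the 7-month dots, on 5 and 2 UMIs, stand at 24.5 and 24.4 CPM, close to the lower juvenile dot at 26.6 CPM. How many of all genes part in this way was not counted, so the parting is not read as a trait of these genes.

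Wells that held 3 or more of the 10 genes were 16 of 311 (5.14%, 95% exact Clopper-Pearson interval 2.97 to 8.22) and 14 of 339 (4.13%, 2.28 to 6.83) at 37 dpf. At 5 months they were 3 of 257 (1.17%, 0.241 to 3.37) and 2 of 174 (1.15%, 0.140 to 4.09). At 7 months there was 1 of 203 (0.493%, 0.0125 to 2.71) and 0 of 106, which the exact interval bounds at 3.42%. Intervals cover counting error only. Both 37 dpf plates were above all 4 adult plates, with means of 4.64% ± 0.718 (SD, n = 2 plates), 1.16% ± 0.0127 and 0.246% ± 0.348 by age. With 2 plates against 2, an exact permutation test cannot go below p = 0.33, so the shares were not tested. After each well was thinned to 400 UMIs the means were 3.16%, 0.388% and 0.204%. By plate the thinned shares were 0.409% and 0.368% at 5 months, and 0.409% and 0% at 7 months. The order of the adult ages then rests on the 0 of the second 7-month plate.

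**Figure D2:**
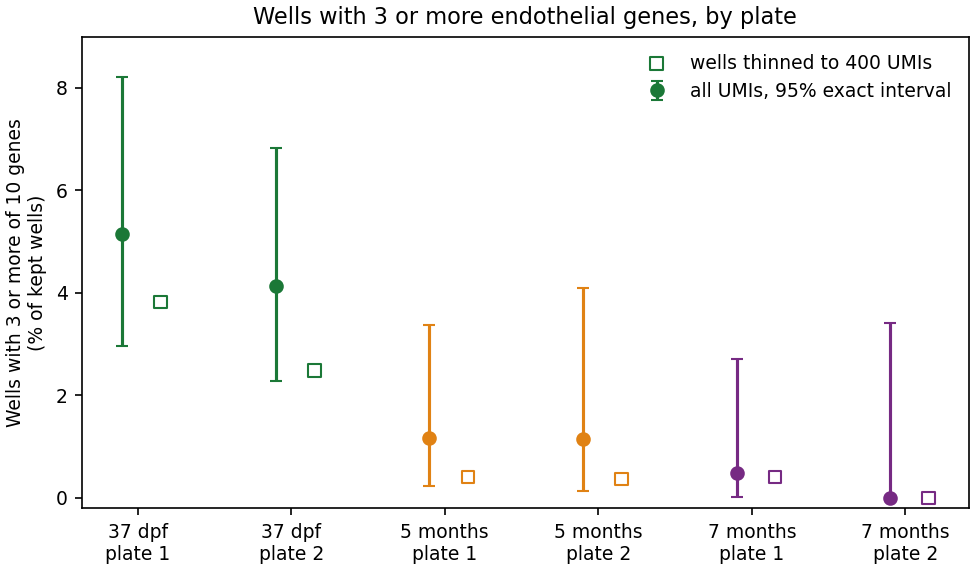
Share of kept wells with 3 or more of the 10 genes on each plate (%, filled circles with 95% exact intervals) and the same after thinning every well to 400 UMIs (open squares). The 37 dpf plates stand at 5.14% and 4.13% and the adult plates at 1.17% or less. Juvenile and adult intervals overlap, except those of the first 37 dpf plate (from 2.97%) and the first 7-month plate (up to 2.71%).

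The 30 juvenile wells of this kind made up 4.62% of the kept 37 dpf wells and 2.0% of their UMIs, but held 481 of the 601 member UMIs (80.0%). They were shallower than the rest, with medians of 1160.5 and 1089.5 UMIs against 2184 and 2080 in the other wells of the 2 plates. The rest included deep wells of at least 2% globin UMIs, which had a median of 6390.5 over all 144. The 506 juvenile wells below 2%, with 28 of the 30 among them, had a median of 1363. The 30 wells had 3 to 8 members each, with a median of 5. Just inside the threshold stood 4 wells with 3 members, and just outside it 6 wells with 2. Another 86 wells had exactly 1 member, in 77 of them as a single UMI.

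Scavenger UMIs outnumbered vessel UMIs in most of these wells. Of the 30, 26 had more scavenger than vessel UMIs, 3 had equal numbers and 1 had more vessel UMIs, and none had vessel genes without a scavenger gene. Scavenger genes alone stood in 10 wells, and both kinds in 20. The sums were 186 scavenger and 47 vessel UMIs on the first plate and 102 and 26 on the second, a ratio of 3.96 and 3.92. Because 3′ capture can differ between genes, the ratio is one of detected molecules. The wells were chosen by these same genes, so the split among them is a description. They held 288 of all 349 juvenile scavenger UMIs (82.5%) and 73 of all 107 vessel UMIs (68.2%). Scavenger UMIs per well ran from 2 to 35 with a median of 9.5, and vessel UMIs from 0 to 18 with a median of 1. At least 3 scavenger genes were present in 23 wells, and all 4 in 6.

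Single genes were met unequally in the 30 wells. In order, mrc1a stood in 25, stab1 in 24, stab2 and dab2 in 22 each, vsg1 in 18, lyve1a in 17, cldn5b in 12, vwf in 10, kdrl in 6 and cdh5 in 3. The highest counts in 1 well were 28 UMIs of lyve1a, 11 of cldn5b and 10 of vsg1. The well richest in vessel UMIs had 11 of cldn5b and 7 of vwf beside 11 scavenger UMIs.

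**Figure D3:**
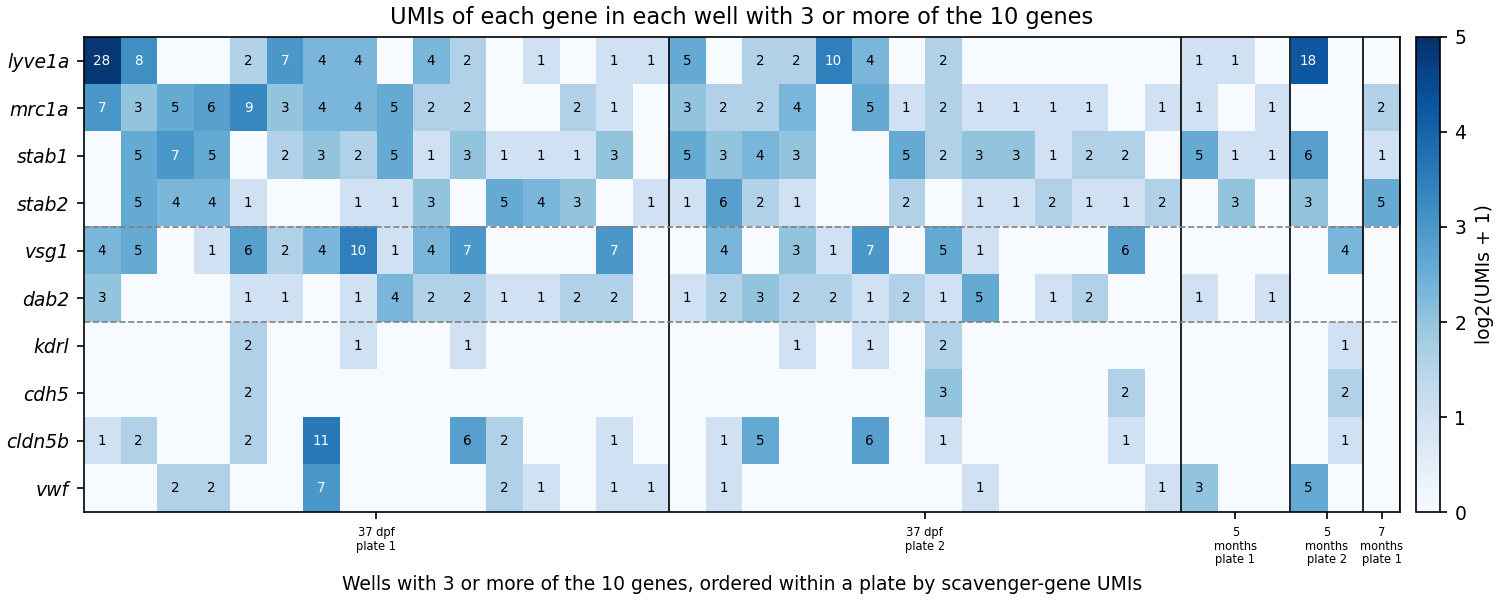
UMIs of each of the 10 genes (rows) in each of the 36 wells with 3 or more of them (columns), grouped by plate and ordered by scavenger UMIs within a plate; colour is log2(UMIs + 1), the number is the UMI count and empty cells are 0. The upper 4 rows are filled in most columns, the kdrl and cdh5 rows in few, and the 1 column at 5 months without a scavenger gene holds kdrl, cdh5, cldn5b and vsg1.

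Several pairs of members sorted unevenly among the juvenile wells, which is described without a test because the wells were chosen by the same genes. All 7 of the 30 wells with kdrl or cdh5 also had vsg1, at 3 to 10 UMIs, against 11 of the other 23. Over all 650 juvenile wells vsg1 was present in 7 of 14 wells with kdrl or cdh5 (50.0%) and in 24 of 636 without (3.77%). The pairing was not particular to vsg1, since lyve1a, mrc1a, dab2 and vsg1 each stood in 6 of the 10 juvenile wells with kdrl. For cldn5b vsg1 stood in 10 of 12 wells with it and 8 of 18 without among the 30, and in 10 of 32 (31.2%) and 21 of 618 (3.40%) among all juvenile wells. For vwf the direction depended on the wells counted, with vsg1 in 5 of 10 wells with vwf and 13 of 20 without among the 30, but in 5 of 13 (38.5%) and 26 of 637 (4.08%) among all. The receptor genes lyve1a and stab2 met in 9 of the 17 wells with lyve1a, while stab2 was present in all 13 wells without it. A minimum of 3 members by itself favours this last kind of pattern, and over all 650 juvenile wells stab2 was found in 10 of 24 wells with lyve1a (41.7%) and in 31 of 626 without (4.95%).

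Other cell types showed how far single UMIs of these genes reach. Any member was present in 16.0% of the 144 globin-rich wells, which had a median of 6390.5 UMIs, and in 19.6% of the other 506 juvenile wells, with a median of 1363. For 3 or more members the shares were 1.39% and 5.53%. For stab2 the globin-rich wells reached 7.64% against 5.93%, and for stab1 the shares were 2.08% and 6.72%. Both sides include wells of the 30 and differ in depth, so the share of wells with a stab2 UMI is not read as a share of cells that express it. In wells rich in gonadotropin transcripts at 5 months, 3 of 40 had any member and 0 had 3 or more, where 0 of 40 has an upper bound of 8.81%.

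Wells rich in macrophage transcripts also held members, foremost stab1, a receptor known from macrophages as well as endothelium. Of the 44 juvenile wells with at least 0.5% of UMIs from a 14-gene macrophage list, 10 had stab1 (22.7%, against 4.46% of the other 606), and they held 14 of its 87 UMIs. The mannose receptor gene mrc1a stood in 5 of the 44 (11.4%, against 4.95%), with 9 UMIs, and vsg1 in 3 (6.82%, against 4.62%), with 5 UMIs. In 1 of the 44, also among the 30 wells, lay 4 of these mrc1a and 3 of these vsg1 UMIs. More frequent too were kdrl (4.55%, against 1.32%) and cdh5 (2.27%, against 0.83%), on 2 and 1 UMIs. The genes lyve1a, stab2, dab2, cldn5b and vwf were less frequent there than in the other wells. At 5 months 7 of 37 such wells had stab1, at 1 or 2 UMIs each, and held 8 of its 21 UMIs, while no other member was found in them. At 7 months stab1 stood in 1 of 14. The summed macrophage list stood at 1252 and 1354 CPM on the juvenile plates, 4856 and 5308 in 5-month fish, and 2476 and 1867 in 7-month fish. Its part in the stab1 level at 5 months was not tested. In the 30 juvenile wells macrophage-list genes were nearly absent on the first plate, at 2 UMIs, and gave 74 UMIs on the second, 73 of them in 1 well. Leaving out that well and the 2 globin-rich ones left 27 wells with 269 scavenger and 64 vessel UMIs, a ratio of 4.20.

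The juvenile wells shared genes other than the members. Over the 205 genes with at least 10 UMIs in them on each plate, likeness was taken as the log2 ratio of CPM + 20 in these wells over the other wells of the plate, averaged over both plates. The genes were thus picked for this excess and for UMIs in these wells, and their values are a description. Most globin-rich wells were among the other wells. Globin-rich wells held 42.0% and 48.7% of the kept UMIs of the plates, and a gene absent from them gains in this ratio. The 10 highest, from 4.91 to 3.64, were CU929150.1, cxcl12a, hapln3, lgmn, sepp1a, ch25h, plk2b, cpn1, ctsla and loxl1. The transcript CU929150.1 had 25 UMIs in 11 of the 30 wells and none in the other 620. Hapln3, a link protein that binds hyaluronan to proteoglycans, had 21 UMIs in 9 wells and 1 UMI elsewhere. The chemokine gene cxcl12a was also present elsewhere, at 4421 and 9643 CPM in the 30 wells and 171 and 257 CPM in the rest. Selenoprotein P (sepp1a), which carries selenium, had UMIs in all 30 wells and in 270 of 620 others.

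Lysosomal proteases were among those 10. Legumain (lgmn) stood at 3075 and 3214 CPM against 124 and 115 CPM, in 28 of 30 wells and 125 of 620 others. The cathepsin L gene ctsla stood at 2845 and 4558 CPM against 267 and 223 CPM. Of the 16 endolysosome genes, 12 had a log2 ratio of at least 1, against 8.55% of the 9239 genes with at least 10 UMIs at 37 dpf, and the list's median was 1.88 against -0.42 for those genes. The 9239 genes were not matched to the list by level, so the 2 shares are not a like comparison. One of the 12, lamp1, had 1 UMI in these wells on each plate. Among the 12 were lamp2 (3.26), hexb (2.70), ctsd (2.51), gba (2.48) and npc2 (1.76). The endocytic receptors cubn and lrp2a of kidney tubules had no UMI in the 30 wells. In sum the endolysosome list reached 9456 and 11805 CPM in them and 1058 and 1020 CPM in the others.

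**Figure D4:**
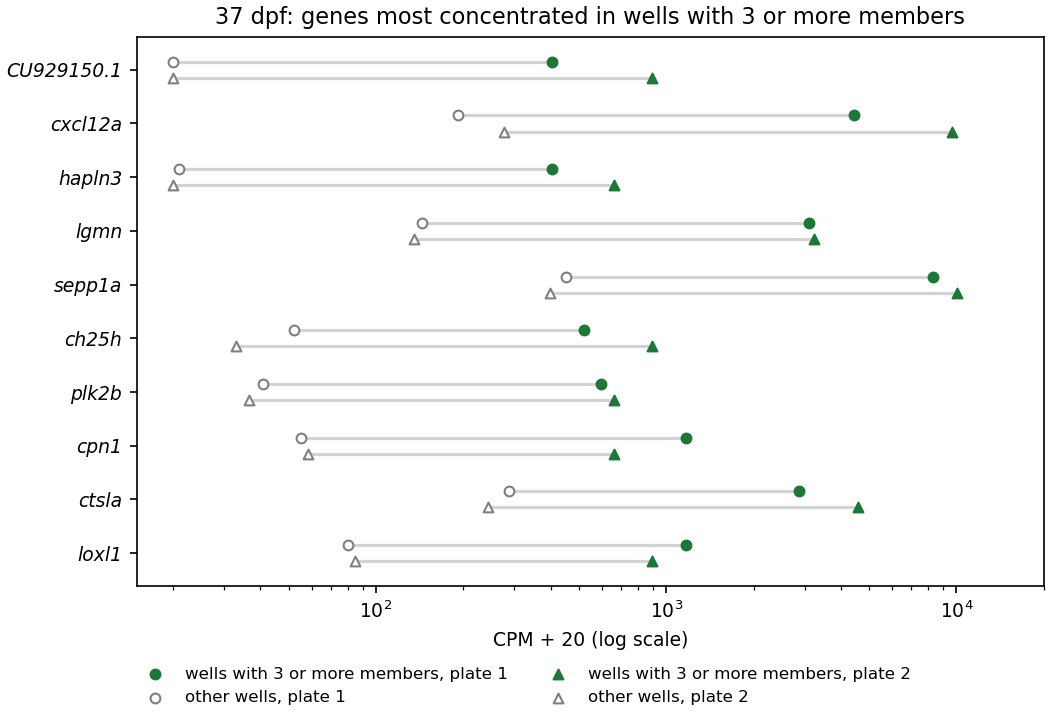
CPM + 20 (log axis) of the 10 genes with the highest likeness in the 37 dpf wells with 3 or more members (filled) and in the other 37 dpf wells (open), with circles for the first plate and triangles for the second. The genes were picked for this ratio, so filled symbols lie to the right of open ones by choice; lgmn goes from 124 and 115 CPM to 3075 and 3214 CPM.

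Other endothelial lists followed only in part. Of 6 pan-endothelial genes with at least 10 juvenile UMIs, 5 had a log2 ratio of at least 1, against 8.55% of all genes with that many. Among them were etv2 (10 UMIs in the wells, 3 elsewhere), clec14a (8 and 2) and ramp2, a receptor-activity protein (24 and 29). By plate ramp2 had 23 and 1 UMIs in the wells against 12 and 17 elsewhere. Another of the 5, sox7, had 5 UMIs in the wells of the first plate and 0 in those of the second. The exception was the water channel gene aqp1a.1, with 0 UMIs in the 30 wells and 118 elsewhere. In the vein and lymphatic list 5 of 7 reached such a ratio. They were led by flt4, the receptor of lymphatic growth factors (23 and 25 UMIs), and lyve1b, the paralogue of lyve1a (10 and 2). Of these 5, mrc1b and tbx1 had UMIs in the wells of the second plate only. The others of the 7, nr2f2 and scarb1, had no UMI in the wells and 16 and 24 elsewhere. The zebrafish lymphatic transcription factor gene prox1a had 3 UMIs in the wells and 4 elsewhere. Of the 8 fenestration and barrier genes 6 had a row of that name. These had no UMI in the 30 wells, with only 17 and 15 in the other wells of the plates. The genes without such a row were plvapa and plvapb. Under its synonym vsg1, a member by which the wells were chosen, plvapb had 78 UMIs in 18 of the 30 wells. The row plvap, described further on, had 1 UMI there. The 7 mural cell genes with a row had no UMI in the 30 wells, against 76 and 88 elsewhere.

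Only 6 adult wells held 3 or more members, and their cell barcodes all differed. At 5 months the 5 wells had 59 of the 92 member UMIs (64.1%) and at 7 months the 1 well had 8 of 24 (33.3%). One 5-month well of 2800 UMIs had 18 UMIs of lyve1a, 6 of stab1, 3 of stab2 and 5 of vwf, together with 10 of sepp1a and 4 of clec14a. The 7-month well had 5 UMIs of stab2, 2 of mrc1a and 1 of stab1, and 8 of cxcl12a. These resembled the juvenile wells in having scavenger genes on top.

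Another 5-month well was of the opposite make. It had 4 UMIs of vsg1, 2 of cdh5 and 1 each of kdrl and cldn5b, with no scavenger gene, and 5 UMIs of the row plvap, a name RefSeq gives as a synonym of both plvapa and plvapb. The plvap row had 11 UMIs at 5 months, in 3 wells, and each of these had cdh5 and no scavenger gene. At 37 dpf plvap had 1 UMI, in a well with cdh5 and vsg1 that also carried stab1 and stab2, and at 7 months it had none. The scavenger share of all scavenger and vessel UMIs was 74.9% and 79.2% on the 37 dpf plates, 65.5% and 73.3% in 5-month fish, and 91.7% and 50.0% in 7-month fish, the last of 4 UMIs.

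The change with age was tested on UMIs summed per plate, with edgeR's quasi-likelihood test over 11304 genes and Benjamini-Hochberg adjustment. In such sums fewer cells of a type and less RNA per cell cannot be told apart. From 37 dpf to 5 months 3 of the 10 members fell and none rose, where 26.5% of all genes changed, 14.5% downward and 12% upward. They were mrc1a (log2 change -3.27 ± 0.83 SE, adjusted p = 0.00319), cldn5b (-4.12 ± 1.04, adjusted p = 0.00318) and stab2 (-1.75 ± 0.64, adjusted p = 0.0387). As plain ratios of pooled CPM these were 9.64-fold (95% exact counting interval 3.19 to 47.6), 19.8-fold (3.42 to 795) and 3.39-fold (1.56 to 8.72) lower. These intervals treat the UMIs of a well as independent and leave out the spread between plates. They are therefore too narrow and are no test of the change. The median log2 change was -0.88 for the members and -0.15 for all genes.

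Between 37 dpf and 7 months 4 of 10 members fell, where 23.8% of all genes changed, 15.1% downward and 8.65% upward. Of those calls 36.4% were upward, against 53.5% when plates were scaled by library size only, which moved the median change of all genes from -0.49 to -0.08 and left 3 of the 4 members called, without dab2. The scavenger gene lyve1a and the claudin gene cldn5b had no UMI left in kept wells. Over both plates the UMI counts alone put them at least 4.42-fold and at least 2.70-fold lower (edgeR adjusted p = 0.00364 and 0.00651). Like the intervals that follow, these bounds treat UMIs as independent and leave out the spread between plates. Also lower were stab1 (-2.91 ± 0.86, adjusted p = 0.0116), 5.77-fold with an interval of 1.55 to 48.4, and dab2 (-3.08 ± 1.11, adjusted p = 0.0403), 6.77-fold with an interval of 1.16 to 272. All 10 members had a fitted change below 0 with the main scaling, with a median of -2.47 against -0.49 for all genes; kdrl (0.12) was above 0 when scaled by library size. Both comparisons share the 37 dpf plates.

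These calls rest on few UMIs and on single plates. DESeq2 called 0 of 10 members at 5 months and 1, lyve1a, at 7 months. Without the first 37 dpf plate edgeR called 0 at 5 months and 1 at 7 months, again lyve1a, and without the first 7-month plate it called 0 at 7 months. Leaving out the second 5-month plate, which has the lyve1a-rich well, brought lyve1a to -3.36 (adjusted p = 0.0439) and ended the calls of mrc1a and stab2. Leaving out the first 5-month plate ended those of stab2 and cldn5b, and leaving out the second 7-month plate those of lyve1a, stab1 and dab2, the last of which was lost whichever plate was left out. Without the second 37 dpf plate vsg1 was added at 5 months and mrc1a at 7 months.

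Taking out wells with at least 2% globin UMIs, a choice made after seeing the data, gave more calls among the members. Then 5 of 10 fell at 5 months, with vsg1 (-1.81, adjusted p = 0.0351) and dab2 (-2.39, adjusted p = 0.0165) added, while 9.26% of all genes fell. At 7 months 5 of 10 fell, with mrc1a added (-2.55, adjusted p = 0.0241), while 9.22% of genes fell. The endothelial transcripts kdrl, vwf and cdh5 were called in neither comparison under any setting tried; cdh5 had a fitted change of 1.30 ± 0.95 at 5 months (adjusted p = 0.334).

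Between the adult ages, which share a sequencing batch, edgeR called 0.955% of genes, 0.725% downward and 0.23% upward, and 0 of 10 members. Without globin-rich wells 0.629% of genes fell and again 0 members. Of the calls 24.1% were upward, and 66.9% under scaling by library size only. At an unadjusted p under 0.05 there were 3 members, namely lyve1a, stab1 and cdh5, all lower at 7 months. Over all 11304 genes 1219 had such a p. DESeq2 called 0 members. For lyve1a, from 21 UMIs to none, the edgeR adjusted p was 0.139. Pooled over plates the UMI counts alone put it at least 2.86-fold lower. As 18 of the 21 UMIs lay in 1 well, this is not a lower bound on the change between ages.

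**Figure D5:**
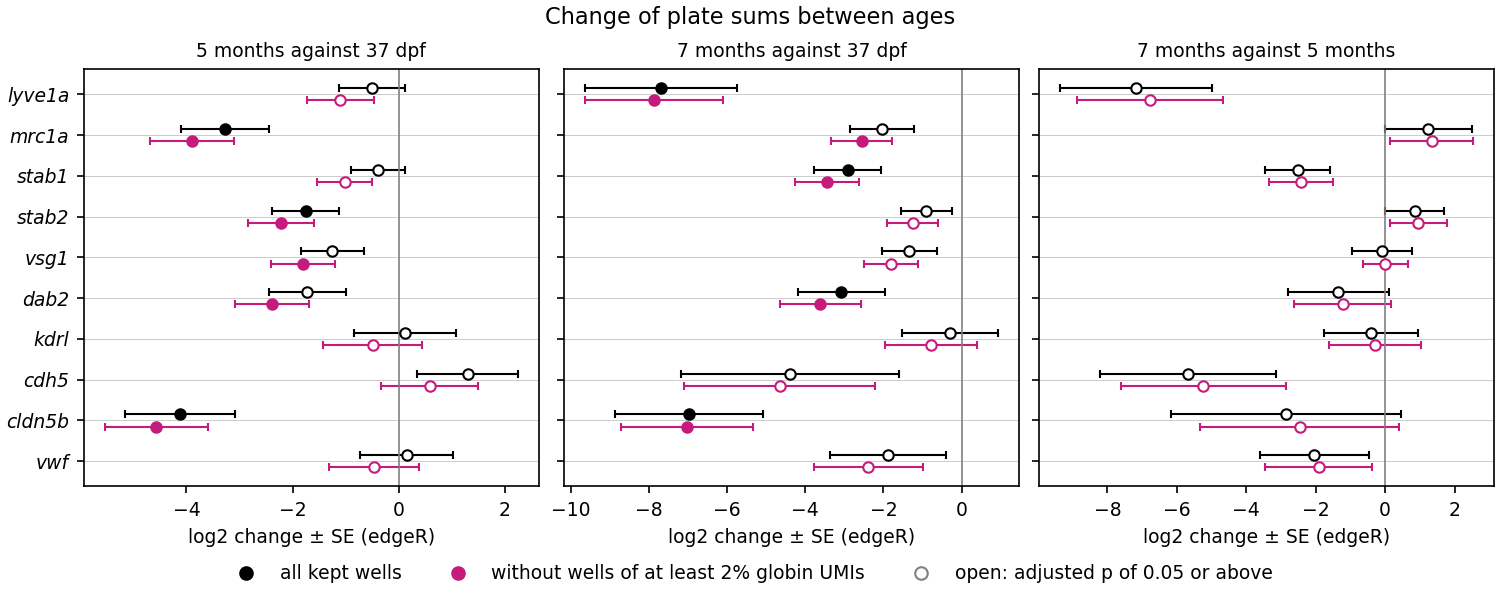
Log2 change ± SE of plate sums of the 10 genes by edgeR in the 3 comparisons of ages, with all kept wells (black) and without wells of at least 2% globin UMIs (pink); filled symbols have an adjusted p under 0.05. In the first comparison mrc1a, stab2 and cldn5b are filled in black and vsg1 and dab2 only in pink; in the third no symbol is filled.

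Other genes of the endothelial lists changed in both directions with age, in plate sums that include wells of every kind. The lymphatic receptor gene flt4 went from 48 UMIs at 37 dpf (23.2 and 21.4 CPM) to none on any adult plate (edgeR adjusted p = 0.00179 at 5 months and 0.0129 at 7 months). Of the 8 tested genes in the vein and lymphatic list it was the 1 that fell at 5 months, while prox1a (3.48 ± 0.72, adjusted p = 4.41e-04) and mrc1b (2.23 ± 0.57, adjusted p = 0.00353) rose. At 7 months none of the 8 rose and 2 fell, flt4 and fabp11a, the latter not without globin-rich wells; prox1a had 4.89 and 0 CPM there, a fitted change from 37 dpf of -0.30 ± 1.58, and mrc1b 4.89 and 36.6 CPM, a change of -0.31 ± 0.95. Without globin-rich wells flt4 and prox1a kept their calls at 5 months and mrc1b did not (adjusted p = 0.0855). Of 4 tested artery genes dll4 (2.46 ± 0.86, adjusted p = 0.0319) and efnb2a (1.43 ± 0.44, adjusted p = 0.0141) rose, and both calls ended without globin-rich wells; at 7 months neither was called and dlc was (2.82 ± 0.94, adjusted p = 0.0270), again not without globin-rich wells. DESeq2 called prox1a (adjusted p = 0.0297) but not flt4 (0.0720), mrc1b (0.157), dll4 (0.243) or efnb2a (0.0879) at 5 months. UMIs of these genes lay partly or mostly outside wells with 3 or more members. At 37 dpf these wells held 1 UMI of efnb2a against 60 elsewhere, 52 of fabp11a against 318 and 11 of mrc1b against 19. For dll4 and dlc the counts were 5 against 2 each. At 5 months they held 1 of 33 and 1 of 20 efnb2a UMIs and 1 of 42 and 1 of 7 mrc1b UMIs by plate. Of prox1a, at 25 and 4 UMIs, they held 1. Of 12 tested pan-endothelial genes aqp1a.1 alone changed at 5 months, downward, from 118 UMIs that all lay outside the 30 wells. The summed pan-endothelial list stood at 152 and 128 CPM on the juvenile plates, 132 and 164 in 5-month fish, and 53.8 and 73.2 in 7-month fish. Of the juvenile sums aqp1a.1 gave 38 of 151 and 80 of 149 UMIs, and it gave none on the adult plates. The sums therefore do not compare the other genes of the list between ages. With all kept wells none of the 16 endolysosome genes was called by edgeR at 5 months. Its unadjusted p was under 0.05 for 1 of them, against 4270 of all 11304 genes. DESeq2 called 0 and scaling by library size alone called ctsla. Without globin-rich wells edgeR called 1 of 15 lower at 5 months and 2 of 15 at 7 months, where 9.26% and 9.22% of all genes fell. At 7 months ctsz fell (-2.74 ± 0.63, adjusted p = 0.00159), with the summed list between 1147 and 1279 CPM on all 6 plates.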

How the data were processed

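The deposited plate tables hold raw UMI counts per gene name and well, whole numbers that the authors left unnormalized. Per the submitters' processing notes the build was danRer10, with bcl2fastq 2.15.0.4 and Seurat 3.1.5; the aligner and annotation are not given in the sources used here. A deposited well list gives the sequencing batch of 5 of the 6 plates. The tables' 92 spike-in rows hold no count.

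Wells of at least 400 UMIs were kept, and doublets were not removed. Levels are CPM of the kept UMIs of a plate. Tests used edgeR 4.0.16 in R 4.3.3 on plate sums of all 6 plates: genes with at least 10 UMIs in all, TMM scaling, the quasi-likelihood test and Benjamini-Hochberg adjustment at 0.05, tested on simulated data. SEs are the log2 change divided by the root of F. DESeq2 1.42.0 was an alternative; shares have exact Clopper-Pearson intervals (scipy 1.17.1). Thinning to 400 UMIs was averaged over 100 draws. CPM at a count of 0 was bounded by 3 UMIs, per plate for levels and over both plates of an age for ratios. Bounds and counting intervals of ratios treat UMIs as independent.

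The members and gene lists were chosen with earlier results of these data known. Text names the 10 members, up to 4 called genes per list, those of the endothelial lists first, and the 10 genes of highest likeness (10 or more UMIs per plate in the wells concerned); other list genes were picked for description after their values were seen. The planned test of scavenger-rich against vessel-rich wells was not run, because it required 5 wells of each kind on both 37 dpf plates and these had 1 and 0 vessel-rich wells. No sequence is printed. RefSeq matched 9 members by symbol and vsg1 by synonym.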

Additional observations from a re-analysis of the deposited data

Results flagged for a closer look

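Wells under 400 UMIs, left out of every comparison above, held 34 member UMIs on the first 37 dpf plate, in 73 wells with 17055 UMIs in all, and 4 of those wells had 3 members. Elsewhere such wells held 3 member UMIs on the second juvenile plate, and 1 and 1 in 5-month fish. In 7-month fish they held 0 and 2, the latter being 1 of lyve1a and 1 of cdh5. None of those wells had 3 members. The 34 UMIs were picked out because they lie in data outside the main measurement. They are also above the limit of 3 counts that a count of 0 allows. Including all wells left the members called the same at 5 months (3 of 10) and at 7 months (4 of 10).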

How the results depend on the processing

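No paired analysis was possible because replicate numbers follow accession order and pair no plates. Against 2990 genes called from 37 dpf to 5 months, DESeq2 called 1582 and the test without wells of at least 2% globin UMIs 1764, and leaving out 1 plate gave 1307 to 3224. Against 2688 from 37 dpf to 7 months these were 1629 and 1590, and 1324 to 2460. Between adult ages, against 108, scaling by library size gave 163, genes of at least 1 UMI 169, and leaving out 1 plate 18 to 138.

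The mean share of juvenile wells with 3 or more members was 5.55% with a minimum of 2 members, 3.78% in wells of at least 1000 UMIs, 5.54% without globin-rich wells and 3.16% thinned. At 5 months it was 1.55%, 0.769% with at least 4 members, 1.39% at 1000 UMIs, 0.964% without dab2, 1.26% without macrophage-rich wells and 0.388% thinned. At 7 months it fell from 0.246% to 0% both with at least 4 members and in wells of at least 1000 UMIs. Single plates gave 4.13% to 5.14%, 1.15% to 1.17% and 0% to 0.493% by age.

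Of 426 recomputed changes of members, 362 kept direction and side of the threshold, 30 lost the call, 12 gained it and 22 changed sign, all of uncalled values; for the sign changes the cause was not tested. From 37 dpf to 5 months they were kdrl (-0.040 with genes of at least 1 UMI, -0.49 without globin-rich wells), vwf (-0.47 without them) and lyve1a (0.0029 in wells of at least 1000 UMIs). Leaving out 1 plate spanned -3.36 to 0.67 for lyve1a, -0.86 to 0.11 for stab1, -0.41 to 0.72 for kdrl and -0.76 to 2.11 for vwf. To 7 months kdrl turned under library-size scaling (0.12), and leaving out 1 plate spanned -0.71 to 0.34 for kdrl and -5.72 to 0.11 for vwf. Between adult ages vsg1 turned under library-size scaling (0.31), edgeR's filterByExpr (0.13) and without globin-rich wells (0.0047), and stab2 in wells of at least 1000 UMIs (-4.71); leaving out 1 plate spanned -4.41 to 5.62 for mrc1a, -0.76 to 0.13 for kdrl and -6.52 to 0.62 for vsg1. For lyve1a between adult ages 4 of 15 alternatives gave a call (adjusted p from 0.0125 to 0.715). Restricting to wells of at least 1000 UMIs ended the calls of stab2 at 5 months and of stab1 and dab2 at 7 months, and added vsg1 at 7 months. Under filterByExpr 3 members were tested, and cdh5 was not tested in wells of at least 1000 UMIs. Where 1 plate of an age was left out, the other was assumed to vary like the remaining plates. On the second 7-month plate a gene needed 36.6 CPM to reach 3 UMIs, so absence there was not detectable below that level.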

Other observations

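The genes cxcl12a and sepp1a, among those most like the members, were not restricted to wells with members in adults, nor at 37 dpf. In juveniles they had UMIs in 139 and 270 of the 620 wells with fewer than 3 members. The chemokine gene cxcl12a stood at 958 and 1098 CPM at 5 months, in 42 and 32 wells, and at 807 and 842 CPM at 7 months, against 283 and 394 CPM at 37 dpf. The gene sepp1a had 639 and 520 CPM in juveniles, 326 and 409 in 5-month fish, and 1174 and 891 in 7-month fish, there in 103 and 41 wells. The transcript CU929150.1, found at 37 dpf only in wells with 3 or more members, had 5 UMIs at 5 months, all in the well with 5 members, and 15 UMIs at 7 months in 3 wells, none of which had 3 members. The gene hapln3 had 4 UMIs at 5 months and none at 7 months.

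Some mural cell genes, those of the pericytes and smooth muscle around vessels, rose with age. Of 8 listed 5 were tested, and 4 of these rose at 5 months, where 12% of all genes did: notch3 (log2 change 3.30 ± 0.65 SE, edgeR adjusted p = 2.21e-04), tagln (2.91 ± 0.56, adjusted p = 2.09e-04), acta2 (2.54 ± 0.80, adjusted p = 0.0174) and rgs5a (1.97 ± 0.38, adjusted p = 1.85e-04). At 7 months 2 of the 5 rose, notch3 (4.54 ± 0.62) and rgs5a (2.82 ± 0.39), where 8.65% of all genes did, and myh11a was called at neither age. The summed list stood at 76.7 and 75.4 CPM on the juvenile plates, 421 and 275 in 5-month fish, and 460 and 964 in 7-month fish. Without globin-rich wells 3 of 5 rose at 5 months and 2 of 5 at 7 months, and DESeq2 called notch3, tagln and rgs5a but not acta2 (adjusted p = 0.412) at 5 months. Of the thrombocyte list, whose cells also make von Willebrand factor, fn1b rose (2.27 ± 0.58, adjusted p = 0.00350) and gp1bb fell at 5 months. The fn1b call ended without globin-rich wells (adjusted p = 0.0522) and under DESeq2 (adjusted p = 0.128), while at 7 months fn1b was called with all wells, without globin-rich wells and by DESeq2. The summed list was at 94.9 and 101 CPM in juveniles, 100.2 and 134 in 5-month fish and 264 and 73.2 in 7-month fish.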
